A study of Mus musculus with 8 samples.

Results

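Condensin and cohesin are the ring-shaped protein complexes that organize chromosomes, and their transcripts were examined here in hematopoietic stem cells (HSCs) after deletion of Mitol. The genes are taken by symbol, and they were picked with earlier results of these data known. They are 10 of the 22065 named genes counted, of which 5 encode subunits of condensin (Smc2, Smc4, Ncapd2, Ncapg and Ncaph), 4 encode subunits of cohesin (Smc1a, Smc3, Rad21 and Stag2) and 1, Esco2, encodes an acetyltransferase that acts on cohesin. All 10 passed the filter on low counts, so each was tested among 16444 genes.

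RNA-seq was performed on 8 libraries of 100 sorted bone marrow HSCs each, 4 labelled Mitol KO and 4 labelled Control. Mice of both groups were C57BL/6, 8 to 10 weeks old and homozygous for a floxed Mitol allele, and both received Poly:IC 1 week before the cells were taken. Only the Mitol KO group carried MX1-cre, an interferon-inducible recombinase that is active in blood cells and also in other tissues of the mouse. The control group had littermates without the recombinase, so the difference between the groups includes the presence of MX1-cre itself. HSCs were sorted as lineage-negative EPCR+ CD48- CD150+ cells in the description of the series, and the study's definition of LT-HSCs also requires c-Kit, the product of Kit. The sources used here do not tie the libraries to separate mice, and p-values then measure only the spread between these libraries. In bulk libraries of this kind, a change in the share of cells that express a gene and a change in the RNA of each cell cannot be told apart.

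Condensin and cohesin share a plan in which a pair of SMC ATPases is closed into a ring by a kleisin subunit, with HEAT-repeat proteins bound to the kleisin. Condensin compacts chromosomes for mitosis, and condensin I, to which the 5 genes belong, differs from condensin II in its kleisin and HEAT-repeat subunits while sharing SMC2 and SMC4. Cohesin holds sister chromatids together from S phase to anaphase and folds interphase DNA into loops, so it is used by dividing and by resting cells. HSCs of the adult marrow are mostly quiescent.

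The total count per library was 7214935 to 12398138. Marchf5, the gene for MITOL, had 276, 232, 308 and 281 normalized counts in Mitol KO replicates 1 to 4 and 299, 312, 333 and 262 in control replicates 1 to 4, where a normalized count is the read count divided by the size factor of its library. The groups overlapped, with a log2 fold change of -0.15 (SE 0.13, adjusted p = 0.498). Counts per gene cannot show the removal of part of a gene, the deleted exons are not given in the sources used here, and "Mitol KO" below is the label of the libraries. In the study, mice were classed as deleted once PCR had shown loss of the Mitol gene. In the table, 6 HSC markers summed to 16714 to 19834 normalized counts in Mitol KO libraries and 24386 to 29864 in controls, and 2 of them (Kit and Hlf), which carry most of the sum, were lower past the threshold. The others did not pass by edgeR and ran both ways. Procr, which encodes EPCR of the gate, had 387 to 514 normalized counts in Mitol KO libraries and 470 to 719 in controls. The groups overlapped for Procr, with a log2 fold change of -0.34 (adjusted p = 0.179), and Mecom was at -0.13 (adjusted p = 0.389). Slamf1, which encodes CD150 of the gate, had 412 to 669 normalized counts in Mitol KO libraries and 299 to 409.7 in controls, without overlap (log2 fold change 0.56, adjusted p = 0.0501, and 0.0117 by DESeq2), and Ly6a, which encodes Sca-1, was at 0.76 on the log2 scale (adjusted p = 0.0605, and 0.0107 by DESeq2). Of 3 markers of other progenitors, 3 were tested and 1 passed, Cd48, which the gate excludes. Cd48 had 22.2 to 63.4 normalized counts in Mitol KO libraries and 4.49 to 21.7 in controls (adjusted p = 0.0450). The call of Cd48 held in 2 of the 8 fits with a library left out. Flt3 was at 0.45 on the log2 scale (adjusted p = 0.337) and Cd34 at 0.01 (adjusted p = 0.969). Of 8 erythroid markers, 4 were tested and 1 passed, Hbb-bt, which was higher in Mitol KO (log2 fold change 1.29, adjusted p = 0.0442). That call held in 3 of the 8 fits with a library left out, and the adjusted p was 0.0503 by DESeq2. Summed, the 8 had 918 to 3410 normalized counts in Mitol KO libraries and 256 to 737 in controls, and Mitol KO replicate 3 held 388 normalized counts of Hba-a1, where the other 7 libraries held at most 7.91. Mitol KO replicate 4 held 523 of Car1, where the other 7 held at most 52.8. Klf1 was at 10.2, 21.8, 92.5 and 103 in Mitol KO replicates 1 to 4 and at 1.32 to 19.8 in controls. Markers of neutrophils summed to 16.9 to 36.6 against 50.1 to 88.9, those of the B lineage to 136 to 150.3 against 145 to 204, and those of the T lineage to 20.1 to 36.0 against 35.0 to 54.3, with 1 gene of each list tested and none past the threshold. The part of these differences in the results below was not tested.

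All 5 condensin genes were higher in the Mitol KO libraries past the threshold (an adjusted p under 0.05 in the quasi-likelihood test of edgeR, corrected over all genes by the Benjamini-Hochberg method), with log2 fold changes of 0.66 to 1.21 and a median of 1.15. None of the 4 cohesin genes passed, with log2 fold changes of -0.06 to 0.34 and a median of 0.24. Esco2 was higher, with a log2 fold change of 1.29. Over all genes tested, 4.68% were higher past the threshold and 3.75% lower, and the median log2 fold change was -0.02 with a 5th to 95th percentile range of -0.87 to 0.71. Of the cohesin genes, 2 had an unadjusted p under 0.05, as did 13.6% of all genes in the higher direction, and 1 passed by DESeq2, by which 8.19% of all genes were higher. Separate results for condensin and cohesin do not test the difference between them, and no test over the members is given.

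**Figure D1:**
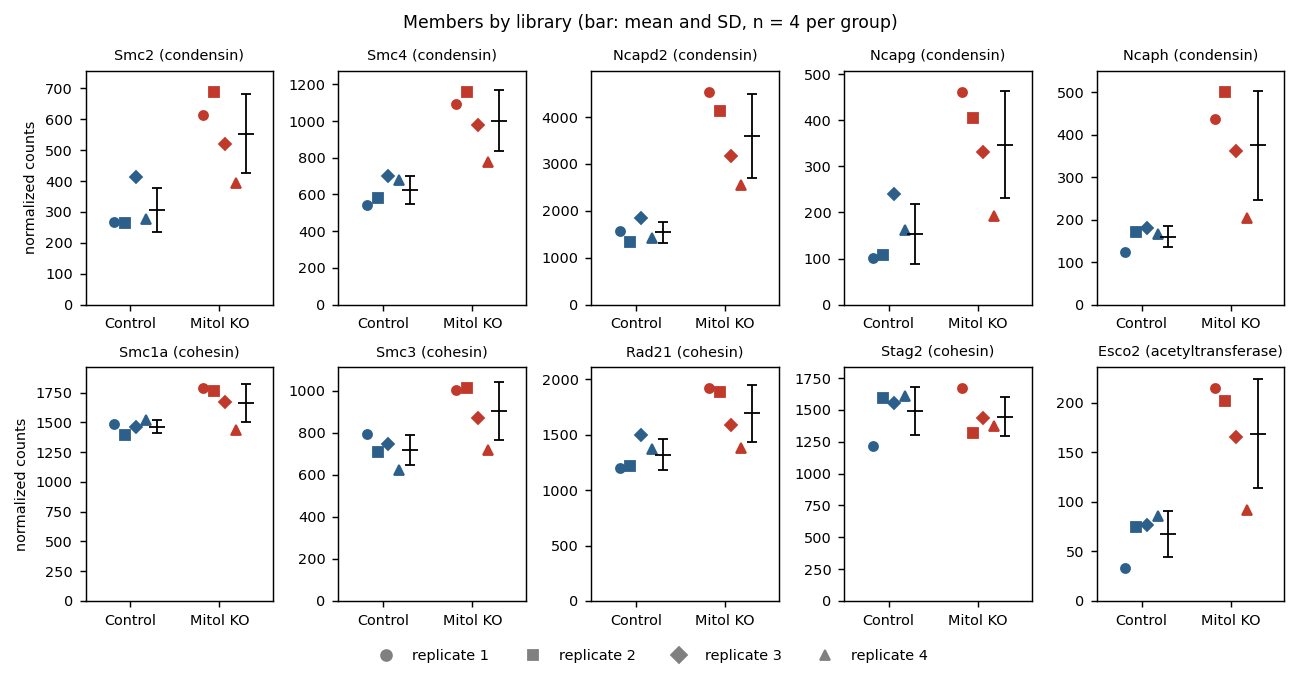
Normalized counts of the 10 genes in each library, with a panel per gene, the groups on the horizontal axis, blue for Control and red for Mitol KO, and symbols for replicates 1 to 4. Black bars give the mean and SD (n = 4 per group), and vertical axes start at 0. Smc4, Ncapd2, Ncaph and Esco2 have no overlap between groups, and Mitol KO replicate 4 is the lowest Mitol KO library in all 5 condensin panels.

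The promoters of the genes are described by sequence, and whether sequence relates to the fold changes was not tested. RefSeq promoters (build GRCm38.p6) were matched for 6 of the 10 genes, Smc2, Ncapd2, Ncapg, Ncaph, Smc1a and Smc3. Those of Smc4, Rad21, Stag2 and Esco2 were not used here. Each was searched on both strands, from 250 bases before the start to 50 after it, for 3 motifs of cell cycle promoters. These were the CHR (cell cycle genes homology region, spelled TTTGAA or else spelled TTCGAA), the E2F site (spelled TTCCCGC or else spelled TTCGCGC, or else spelled TTGCCGC, or else spelled TTGGCGC) and the CCAAT box (CCAAT). The Ncaph and Smc3 promoters were searched but are not printed. The stretch of 180 bases before the start is given for 3 condensin genes, those with a CHR match, and 1 cohesin gene. It is on the strand of the gene, with the matches in capitals. It is chr4:52439041-52439220 (+) for Smc2, chr6:125191587-125191766 (-) for Ncapd2, chr5:45669745-45669924 (+) for Ncapg and chrX:152016248-152016427 (+) for Smc1a.
Smc2: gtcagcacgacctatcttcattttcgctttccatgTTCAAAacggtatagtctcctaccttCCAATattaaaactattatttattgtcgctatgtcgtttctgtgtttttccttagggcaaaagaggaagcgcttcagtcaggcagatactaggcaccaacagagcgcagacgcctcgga
Ncapd2: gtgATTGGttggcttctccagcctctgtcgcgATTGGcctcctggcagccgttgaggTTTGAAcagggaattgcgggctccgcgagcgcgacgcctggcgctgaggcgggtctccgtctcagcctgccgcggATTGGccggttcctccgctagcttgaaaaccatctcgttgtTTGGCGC
Ncapg: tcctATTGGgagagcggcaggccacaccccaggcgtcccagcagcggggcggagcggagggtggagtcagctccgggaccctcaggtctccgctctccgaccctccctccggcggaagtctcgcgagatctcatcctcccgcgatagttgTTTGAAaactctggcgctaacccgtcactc
Smc1a: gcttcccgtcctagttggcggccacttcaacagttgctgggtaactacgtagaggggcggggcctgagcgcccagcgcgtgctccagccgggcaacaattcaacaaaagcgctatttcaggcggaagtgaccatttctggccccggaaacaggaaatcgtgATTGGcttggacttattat

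In the Smc2 stretch, the first capitals are a CHR on the opposite strand, 145 bases before the start, and the next are a CCAAT box at 119 bases before it. Smc2 had a further CHR match that begins at base 27 after the start. The Ncapd2 stretch holds 3 CCAAT boxes on the opposite strand, a CHR at 123 bases before the start and an E2F match at its end, 7 bases before the start. Ncapg has a CCAAT box at 176 and a CHR at 30 bases before the start, and an E2F match at base 32 after it. No printed match overlapped another.

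CHR letters were thus found in 3 of the 4 condensin promoters searched and in neither of the cohesin promoters. They occur in 14.03% of the 10410 mouse promoters of the same length. E2F letters were found in Ncapd2, Ncapg, Ncaph (base 42) and Smc1a (base 39) and in 16.9% of these 10410 promoters. CCAAT letters were found in Smc2, Ncapd2, Ncapg and Smc1a and in 38.3% of the 10410. Smc3 held none of the 3 motifs and Ncaph only the E2F letters. A match of letters is a description and not a site, and Smc1a, with 2 of the 3 motifs, was among the genes that did not pass the threshold.

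**Figure D2:**
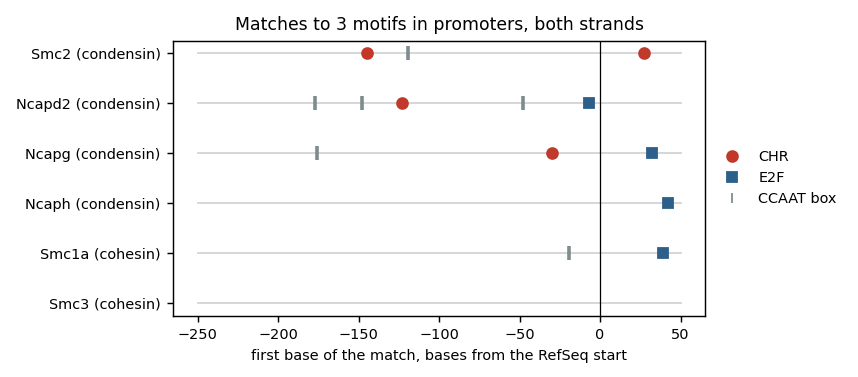
Positions of motif matches in the 6 promoters, in bases from the RefSeq start at 0, with a line per gene from 250 bases before the start to 50 after it. Red circles are CHR, blue squares E2F and grey bars CCAAT matches on either strand; CHR matches lie in Smc2, Ncapd2 and Ncapg, and Smc3 has no match.

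Smc2 and Smc4 encode the ATPase pair that both condensins share. Smc2 (ENSMUSG00000028312, chr4:52439214-52488264 of GRCm39, plus strand) had 613, 689, 520.0 and 395 normalized counts in Mitol KO replicates 1 to 4, and 266, 265, 412 and 278 in control replicates 1 to 4. Control replicate 3 was above Mitol KO replicate 4, so the groups overlapped, although the other 3 Mitol KO libraries were above all controls. The means were 554 ± 127 and 305 ± 71.1 (SD, n = 4), a log2 fold change of 0.84 (SE 0.19, adjusted p = 0.0223). Without Mitol KO replicate 1 or 2, or control replicate 2 or 4, the adjusted p was 0.0579, 0.0642, 0.0737 and 0.0650. Of the Smc2 exon bases, 10.4% overlap the noncoding gene Smc2os on the opposite strand, which had no row in the counts.

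Smc4 (ENSMUSG00000034349, chr3:68911944-68941960, plus strand) encodes the partner of SMC2. It had 1093, 1159, 980.4 and 777 normalized counts in Mitol KO replicates 1 to 4 and 542, 582, 699.9 and 677 in the controls. Here the lowest Mitol KO library was above the highest control. With means of 1002 ± 167 and 625 ± 75.4, the log2 fold change of 0.66 (SE 0.13, adjusted p = 0.0159) was the smallest of the 5 condensin genes. The adjusted p was 0.0560 without control replicate 2.

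Ncaph (ENSMUSG00000034906, chr2:126945729-126975874, minus strand) encodes the kleisin that closes the condensin I ring. Its normalized counts were 438, 501, 361 and 203 in Mitol KO replicates 1 to 4 and 124, 170.2, 179.9 and 165 in the controls. All Mitol KO libraries were above all controls, with replicate 4 close to the highest control. The means of 376 ± 128 and 159.8 ± 24.7 gave a log2 fold change of 1.21 (SE 0.24, adjusted p = 0.0153), which passed without any single library.

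Ncapd2 (ENSMUSG00000038252, chr6:125144962-125169080, minus strand) encodes a HEAT-repeat subunit and was the most abundant of the condensin transcripts. Its normalized counts were 4536, 4131, 3171 and 2547 in Mitol KO replicates 1 to 4 and 1560.1, 1333, 1851 and 1429 in the controls. The groups were well apart. From means of 3596 ± 904 and 1543 ± 225, the log2 fold change was 1.20 (SE 0.16), and the adjusted p of 0.00381 was the lowest of the 10 genes and also passed without any single library. Of its exons, 3.99% overlap Mrpl51 on the opposite strand (log2 fold change 0.53, adjusted p = 0.0675), and whether the counting used strand is not given in the sources used here. On the same strand, 2.98% overlap Scarna10 and 2.96% Gm28967, neither with a row in the counts.

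Ncapg (ENSMUSG00000015880, chr5:45827150-45859062, plus strand) encodes the other HEAT-repeat subunit of condensin I. It had 462, 405, 330.5 and 192 normalized counts in Mitol KO replicates 1 to 4 and 102, 107, 241 and 162 in the controls. Control replicate 3 was above Mitol KO replicate 4, as for Smc2. The means were 347 ± 117 and 153 ± 64.7, and the log2 fold change was 1.15 (SE 0.30, adjusted p = 0.0358). This call depended most on single libraries, since it held only without Mitol KO replicate 4 or control replicate 3 and had an adjusted p of 0.0704 to 0.104 without any other library. In addition, 25.0% of the Ncapg exon bases overlap exons of Lcorl on the opposite strand, which had a log2 fold change of 0.21 (SE 0.16, adjusted p = 0.449), so reads of the shared stretch cannot be assigned without strand.

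Smc1a and Smc3 encode the ATPase pair of cohesin. Smc1a (ENSMUSG00000041133, chrX:150799424-150846390, plus strand) had 1787, 1763, 1668 and 1438 normalized counts in Mitol KO replicates 1 to 4 and 1489, 1394, 1460.1 and 1519 in the controls. Mitol KO replicate 4 fell among the controls and the other 3 were above them. The log2 fold change was 0.16 (SE 0.088, adjusted p = 0.256), from means of 1664 ± 159 and 1465 ± 53.3.

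Smc3 (ENSMUSG00000024974, chr19:53588818-53634295, plus strand) had 1005, 1011, 869 and 719 normalized counts in Mitol KO replicates 1 to 4 and 794, 709.7, 747 and 622 in the controls. As for Smc1a, only Mitol KO replicate 4 was within the control range. Means of 901 ± 138 and 718 ± 72.6 gave a log2 fold change of 0.31 (SE 0.12, adjusted p = 0.129). Without Mitol KO replicate 4 it was 0.42, with an adjusted p of 0.0235.

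Rad21 (ENSMUSG00000022314, chr15:51825636-51855179, minus strand) encodes the mitotic kleisin of cohesin, which separase cuts at anaphase. It had 1919, 1887, 1587 and 1379 normalized counts in Mitol KO replicates 1 to 4, and 1199, 1214, 1498 and 1371 in the controls. Again 3 Mitol KO libraries were above all controls and replicate 4 was not. The means were 1693 ± 257 and 1320.5 ± 142, a log2 fold change of 0.34 (SE 0.12, adjusted p = 0.0913). Rad21 was close to the threshold, with an adjusted p of 0.0489 by DESeq2 and of 0.0163 by edgeR without Mitol KO replicate 4.

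Stag2 (ENSMUSG00000025862, chrX:41238146-41368132, plus strand) encodes a HEAT-repeat subunit bound to RAD21 and is the cohesin gene most often mutated in myeloid malignancies. Its normalized counts were 1669, 1317, 1434 and 1372 in Mitol KO replicates 1 to 4 and 1213, 1597, 1550.5 and 1613 in the controls. No direction separated the groups, as the highest library was a Mitol KO library and the lowest a control. The log2 fold change was -0.06 (SE 0.11, adjusted p = 0.759), the only value below 0 among the 10 genes.

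Esco2 (ENSMUSG00000022034, chr14:66055821-66071443, minus strand) encodes the acetyltransferase that locks cohesin on sister chromatids in S phase. Its counts were the lowest of the 10 genes, with 214, 202, 166 and 92.05 normalized counts in Mitol KO replicates 1 to 4 and 32.97, 74.5, 76.3 and 85.3 in the controls. The groups did not overlap, although Mitol KO replicate 4 lay just above control replicate 4. Means of 168 ± 55.0 and 67.3 ± 23.3 gave a log2 fold change of 1.29 (SE 0.31, adjusted p = 0.0279), the largest of the 10. Without Mitol KO replicate 1, 2 or 3, or control replicate 2 or 3, the adjusted p was 0.0763, 0.0748, 0.0608, 0.0706 and 0.0554.

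For 4 of the 10 genes (Smc4, Ncapd2, Ncaph and Esco2), all Mitol KO libraries were above all controls, where 8.17% of all genes tested did the same. For such a gene a 2-sided exact permutation test of the normalized counts gives p = 0.0286, the smallest that 4 against 4 libraries allow, and 0.186 after adjustment over all genes, so no gene could pass by that test. The libraries differed in level within both groups. Mitol KO replicate 4 was the lowest Mitol KO library for 5 of 5 condensin genes, for 3 of 4 cohesin genes and for Esco2, and control replicate 3 was the highest control for 5 of 5 condensin genes.

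The spread within a group was wider for some genes than for others. Among Mitol KO libraries, the highest was 2.47 times the lowest for Ncaph, 2.41 times for Ncapg and 2.33 times for Esco2, but 1.49 times for Smc4. For the cohesin genes it was 1.24 to 1.41 times. Among controls, Ncapg and Esco2 had the widest ranges, at 2.37 and 2.59 times, and Smc1a the narrowest, at 1.09 times. After each group was centred on its own mean, the log2 values of the condensin genes correlated pairwise over the 8 libraries at r = 0.76 to 0.93 (10 pairs, median 0.86) and those of the cohesin genes at -0.18 to 0.79 (6 pairs, median 0.50), as a description of libraries that share their cells and depth.

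Calls also moved with single libraries. Of the 5 condensin genes, 2 passed without control replicate 2 (Ncapd2 and Ncaph), when 0.995% of all genes were higher past the threshold. Smc4, Ncapd2 and Ncaph passed without Mitol KO replicate 1 (1.84% of all genes), without Mitol KO replicate 2 (1.43%) and without control replicate 4 (1.6%). Without Mitol KO replicate 3, the library with the most hemoglobin transcripts, 4 condensin genes passed (1.85%), all but Ncapg. The same 4 passed without control replicate 1 (4.64%), and all 5 without control replicate 3 (2.48%). Without Mitol KO replicate 4, 8 of the 10 genes passed, Smc3 and Rad21 among them, and 8.77% of all genes were higher. All 5 condensin genes had log2 fold changes of at least 0.59 whichever library was left out.

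The balance of the complexes was described in each library by the geometric mean of the 5 condensin genes over that of the 4 cohesin genes, in normalized counts. The ratio was 0.586, 0.636, 0.534 and 0.420 in Mitol KO replicates 1 to 4 and 0.270, 0.278, 0.373 and 0.310 in control replicates 1 to 4. Every Mitol KO library was above every control. The means were 0.544 ± 0.0924 and 0.308 ± 0.0468 (SD, n = 4), a ratio 1.76 times as high in Mitol KO libraries. With the ATPase pairs alone, Smc2 and Smc4 over Smc1a and Smc3, the means were 0.604 ± 0.0515 and 0.426 ± 0.0707, which is 1.43 times as high and again without overlap. These are ratios of transcripts and not of proteins.

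**Figure D3:**
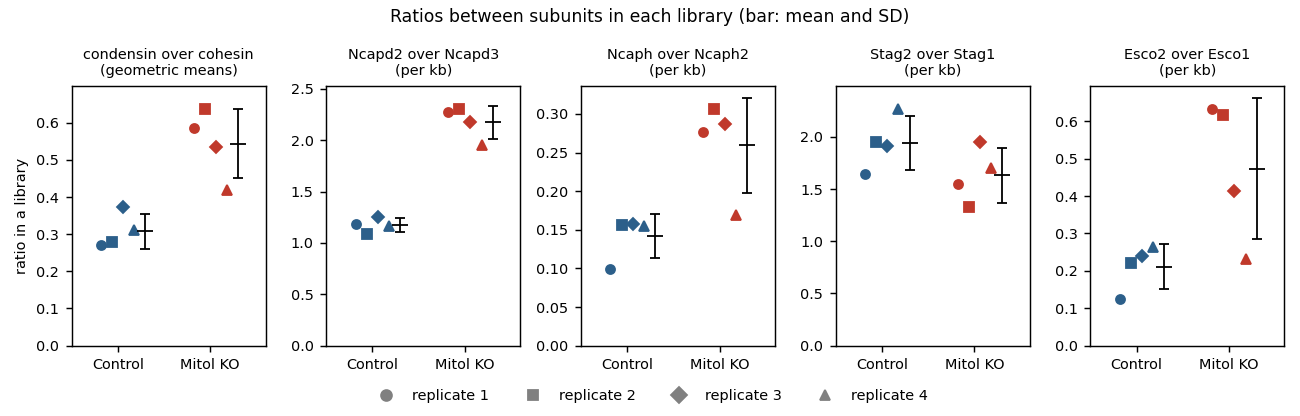
Ratios in each library of condensin to cohesin (geometric means of normalized counts) and of 4 pairs of related subunits (CPM per kb), with blue for Control, red for Mitol KO, symbols for replicates 1 to 4 and bars for the mean and SD (n = 4). The first 3 panels have no overlap between groups, with condensin over cohesin at 0.420 to 0.636 in Mitol KO and 0.270 to 0.373 in Control libraries; Stag2 over Stag1 and Esco2 over Esco1 overlap.

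Levels were compared between genes as TMM-scaled CPM divided by the kb of exon sequence of the gene (CPM per kb, GENCODE vM39 exons). The length counts every annotated exon base of a gene, 25.0% of them shared with Lcorl for Ncapg. The annotation used in counting is not given, so the order of genes is approximate. In control HSCs, Rad21 had the highest level at 32.3 ± 3.51, then Ncapd2 at 20.8 ± 3.02, Smc1a at 15.8 ± 0.622, Stag2 at 14.4 ± 1.85 and Smc3 at 13.4 ± 1.31. The ranges of Smc1a and Stag2, and of Stag2 and Smc3, overlapped, whereas Rad21 and Ncapd2 were each apart from their neighbours. Below these, Smc4 had 10.3 ± 1.27, Smc2 5.75 ± 1.34, Ncaph 3.46 ± 0.537, Ncapg 1.93 ± 0.818 and Esco2 0.856 ± 0.299 CPM per kb. Of the neighbours in this lower part, only Ncaph and Ncapg overlapped.

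In the Mitol KO libraries, Ncapd2 had 47.7 ± 11.7 and Rad21 40.8 ± 5.97 CPM per kb, with overlapping ranges. Smc1a at 17.7 ± 1.63, Smc3 at 16.5 ± 2.45, Smc4 at 16.3 ± 2.65 and Stag2 at 13.8 ± 1.45 overlapped from each to the next. Then came Smc2 at 10.3 ± 2.30, Ncaph at 8.02 ± 2.71, Ncapg at 4.32 ± 1.44 and Esco2 at 2.11 ± 0.681, each also overlapping its neighbour. By this measure, the mean levels of Ncaph and Ncapg were below those of Smc2 and Smc4 in both groups.

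**Figure D4:**
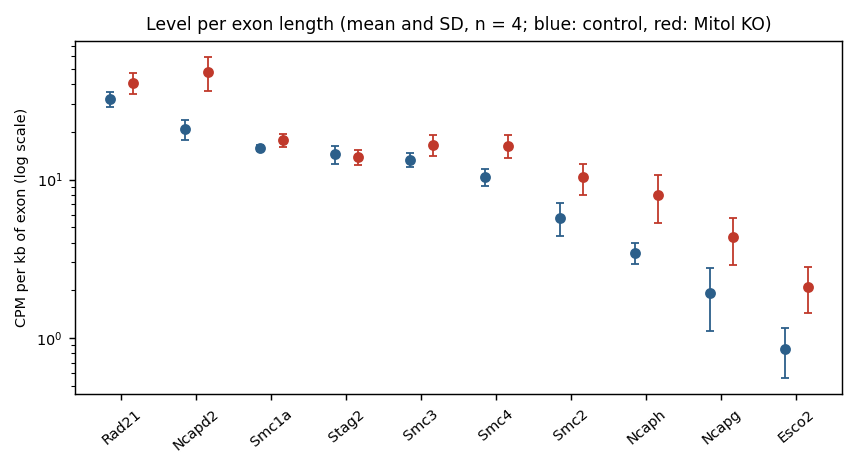
Mean level of each gene in CPM per kb of exon on a log scale, with SD bars (n = 4), blue for Control and red for Mitol KO, ordered by the control level. Rad21 leads in controls at 32.3 and Ncapd2 in Mitol KO libraries at 47.7, and the Stag2 points lie closest together.

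Condensin II, which stays in the nucleus through interphase, has its own kleisin and HEAT-repeat subunits. Of its 3 genes, 0 passed by edgeR and 0 by DESeq2. At an unadjusted p under 0.05 in edgeR, 3 were higher, as were 13.6% of all genes. The kleisin gene Ncaph2 had 1609 ± 252 normalized counts in Mitol KO and 1287 ± 88.9 in control libraries (log2 fold change 0.30, SE 0.11, adjusted p = 0.104). Ncapd3 had 1687 ± 324 and 1349.8 ± 124 (0.30, SE 0.13, adjusted p = 0.152). Ncapg2 was the most uneven, with 2049.8, 1661, 894 and 640.1 normalized counts in Mitol KO replicates 1 to 4 and 612 to 798 in the controls, so that its log2 fold change of 0.93 (SE 0.28) had an adjusted p of 0.0617. Per kb, the level of Ncaph was 0.276, 0.306, 0.287 and 0.169 times that of Ncaph2 in Mitol KO replicates 1 to 4 and 0.0996, 0.156, 0.158 and 0.155 times in the controls, with no overlap. Ncapd2 over Ncapd3 was likewise 1.95 to 2.30 in Mitol KO libraries and 1.09 to 1.25 in controls. Ncapg over Ncapg2 overlapped, with 0.342 ± 0.0779 and 0.276 ± 0.124.

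The other cohesin subunits are the STAG2 paralogs Stag1 and Stag3 and the meiotic subunits Smc1b, Rec8 and Rad21l. Rad21l had no row in the table and Smc1b, at 0.783 to 8.31 normalized counts, did not pass the filter. Of the 3 tested, 0 passed the threshold by edgeR (1 at an unadjusted p under 0.05) and 1 by DESeq2, Rec8. Stag1 had 995 ± 176 normalized counts in Mitol KO and 849.8 ± 58.3 in control libraries (log2 fold change 0.21, SE 0.12, adjusted p = 0.294), Stag3 had 94.9 ± 74.7 and 69.1 ± 13.3 (0.45, SE 0.44, adjusted p = 0.550, and a log2 fold change of -0.25 without Mitol KO replicate 1, at 203 normalized counts), and Rec8 had 404 ± 64.4 and 551 ± 94.97 (-0.47, SE 0.15, adjusted p = 0.0769). Stag2 over Stag1, per kb, was 1.63 ± 0.262 in Mitol KO and 1.94 ± 0.255 in control libraries and overlapped.

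Among 12 regulators of cohesin, 4 were higher past the threshold and 0 lower, where 4.68% of all genes tested were higher and 3.75% lower. The median log2 fold change of the 12 was 0.20. These 4 act in S phase and mitosis. Cdca5, which encodes sororin, the protector of cohesin on replicated DNA, had 498, 472, 309 and 162 normalized counts in Mitol KO replicates 1 to 4 and 102, 109, 155 and 119 in the controls (log2 fold change 1.55, SE 0.30, adjusted p = 0.0136). Espl1, which encodes separase, had 1532, 1393, 1101 and 623 and 297, 300.1, 586 and 427 (1.51, SE 0.27, adjusted p = 0.0107). For both genes all Mitol KO libraries were above all controls. The shugoshins guard centromeric cohesin, and Sgo2a rose from 48.0 ± 18.6 to 127 ± 13.96 normalized counts (log2 fold change 1.36, adjusted p = 0.0147) without overlap. Sgo1 rose from 117 ± 30.7 to 228 ± 64.6 (0.94, adjusted p = 0.0357), with Mitol KO replicate 4 within the control range. Cdca5, Espl1 and Sgo2a passed without any single library, and Sgo1 in 2 of 8 such fits.

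The other regulators of cohesin, its loaders and release factors among them, did not pass by edgeR, and Pds5a passed by DESeq2. The log2 fold change was 0.01 (SE 0.097, adjusted p = 0.949) for the loader gene Nipbl and -0.16 (SE 0.076, adjusted p = 0.207) for its partner Mau2, although all 4 Mitol KO libraries of Mau2, at 2656 to 2982 normalized counts, were below the controls, at 2986 to 3253. For Wapl, which opens the ring, it was 0.07 (SE 0.082, adjusted p = 0.609). Pds5a and Pds5b, whose products bind WAPL or sororin, had 0.36 (SE 0.11, adjusted p = 0.0605, 0.0218 by DESeq2 and 0.00550 by edgeR without Mitol KO replicate 4) and 0.20 (SE 0.091, adjusted p = 0.187). The deacetylase gene Hdac8 had -0.12 (SE 0.15, adjusted p = 0.666), and the separase inhibitor gene Pttg1, securin, had -0.53 (SE 0.31, adjusted p = 0.304). Esco1, the paralog of Esco2 that acts through the cell cycle, had 342 ± 35.4 and 291 ± 30.6 normalized counts (0.21, SE 0.13, adjusted p = 0.323). Per kb, Esco2 over Esco1 was 0.632, 0.616, 0.413 and 0.233 in Mitol KO replicates 1 to 4 and 0.125 to 0.263 in controls, so only Mitol KO replicate 4 was within the control range.

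SMC5/6, the third SMC complex, acts in DNA repair. Of its 9 genes, 1 was higher past the threshold, as were 4.68% of all genes tested. That gene, Nsmce1, which encodes its RING-finger subunit, had 635, 614, 509.9 and 497 normalized counts in Mitol KO replicates 1 to 4 and 360.0, 303, 355 and 368 in the controls. All Mitol KO libraries were above all controls, with a log2 fold change of 0.68 (SE 0.12, adjusted p = 0.00963). The ATPase genes Smc5 and Smc6 had log2 fold changes of 0.26 (SE 0.091, adjusted p = 0.0963) and 0.30 (SE 0.14, adjusted p = 0.180), and the median of the 9 genes was 0.20. Smc5 too had all Mitol KO libraries above all controls, at 1075 to 1247 normalized counts against 841 to 1022.

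Of 8 genes whose products work with the complexes on chromosomes, 4 were higher past the threshold, where 4.68% of all genes tested were. Top2a, the topoisomerase of mitotic chromosomes, had 2992 ± 1131 normalized counts in Mitol KO and 1245 ± 428 in control libraries (log2 fold change 1.24, adjusted p = 0.0237), and Mki67, which coats mitotic chromosomes, had 3171 ± 827 and 1480.0 ± 499.8 (1.08, adjusted p = 0.0197). Both overlapped between groups, through Mitol KO replicate 4 and control replicate 3. Kif4, a chromokinesin that binds condensin, rose from 94.4 ± 51.3 to 254 ± 87.1 (1.39, adjusted p = 0.0360), and the mitotic kinase gene Aurkb rose from 154 ± 66.2 to 513 ± 217 (1.70, adjusted p = 0.0173), both without overlap. With each library left out in turn, Top2a passed in 4, Mki67 in 5, Kif4 in 3 and Aurkb in 7 of 8 fits. Top2b, the topoisomerase that resting cells use, had a log2 fold change of 0.11 (SE 0.077, adjusted p = 0.379), and Ctcf, which halts cohesin loops, 0.33 (SE 0.11, adjusted p = 0.0815). For 5 of the 8 genes all Mitol KO libraries were above all controls, against 8.17% of all genes tested. Among these 5 were Top2b, Ctcf (1544 to 2277 normalized counts against 1437 to 1532) and Smchd1, which did not pass by edgeR. Over the 35 related genes tested, 9 were higher past the threshold and 0 lower by edgeR, with a median log2 fold change of 0.30. By DESeq2 14 passed, the further 5 being Rec8, which was lower, and Pds5a, Smc5, Ctcf and Smchd1. The shares over all genes were 4.68% higher and 3.75% lower by edgeR, and 8.19% higher by DESeq2.

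**Figure D5:**
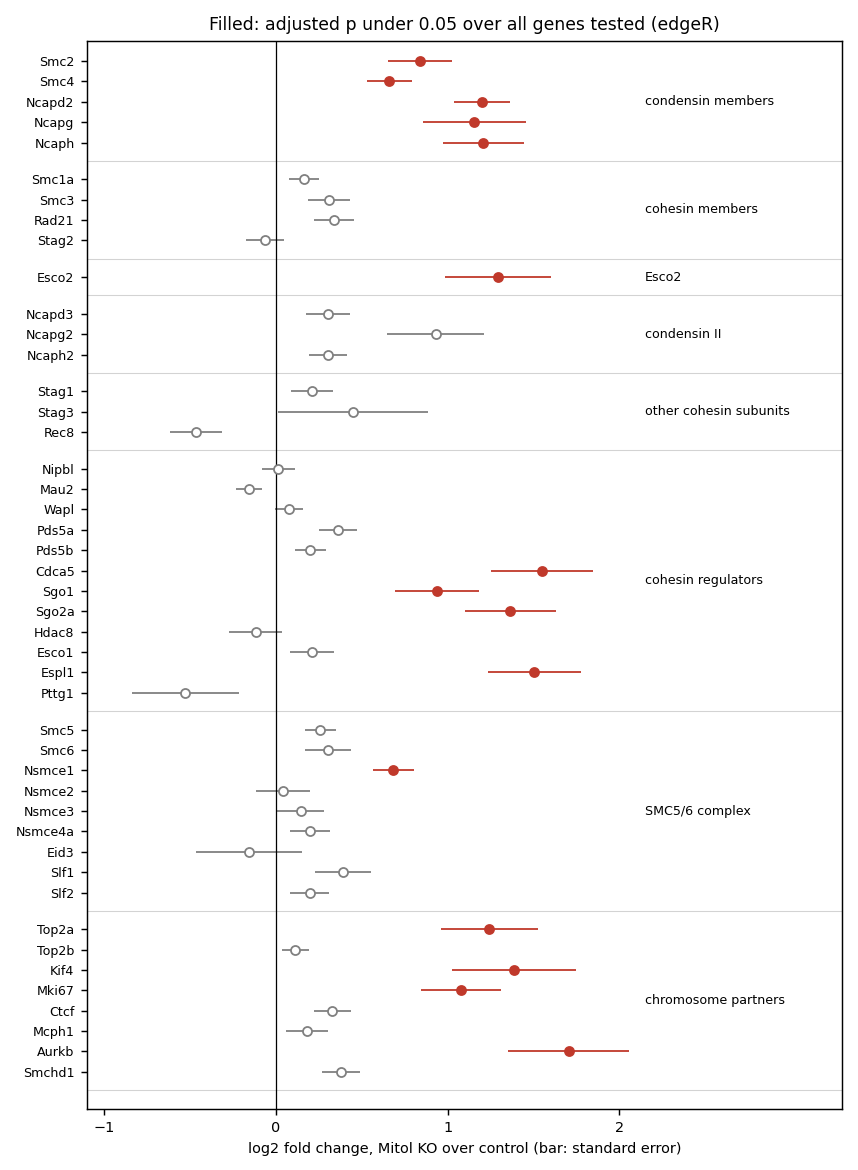
Log2 fold change (Mitol KO over Control) of the 10 genes and of the 35 related genes tested, by list, with standard error bars; filled red points had an adjusted p under 0.05 in edgeR over all genes and open grey points did not. The 5 condensin genes and Esco2 are filled at 0.66 to 1.29, the 4 cohesin genes are open at -0.06 to 0.34, and 9 related genes are filled.

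The genes whose levels ran most like the condensin mean over the 8 libraries, by Pearson's r of log2 CPM among tested genes outside the lists, were Hrob (r = 0.995), Cdk1 (0.989), Tpx2 (0.985), Kif20a (0.985) and Nucks1 (0.984). All 5 were higher past the threshold in Mitol KO libraries, with log2 fold changes of 0.73 to 1.79. Those most like the cohesin mean were Tmpo (0.990), Capza1 (0.989), Memo1 (0.986), Rbbp4 (0.985) and Cdc42 (0.977), of which 0 passed, with log2 fold changes of 0.26 to 0.34. These r values include the difference between the groups and are a description of 8 points that share cells, depth and normalization. Because the genes were picked by these r values, whether they passed follows in part from the choice and is no separate result. Over all genes tested, 4.68% were higher past the threshold.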

How the data were processed

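The authors mapped single-end reads to mm39 and assigned them to genes, and the submitters' processing notes name STAR, SAMtools and Subread. The deposited values are raw read counts without normalization, 1 column per library. Neither the annotation nor the use of strand in counting is given in the sources used here. Of 23094 rows, 1029 named no gene and were left out (0.335% to 0.467% of a library's counts), and no row summed to under 11.

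Genes were filtered with filterByExpr and tested with edgeR 4.0.16 (TMM, quasi-likelihood test, Benjamini-Hochberg over 16444 genes) in R 4.3.3, with the group as the only term. Fold changes are Mitol KO over Control. The threshold was an adjusted p of 0.05. DESeq2 1.42.0 (whose size factors give the normalized counts), limma-voom (limma 3.58.1), other scalings and filters, a replicate block and each library left out were alternatives. Log2 CPM used a prior count of 2. Replicates differed beyond counting noise in every pair. Positions and exon lengths are from GENCODE vM39 (GRCm39) and promoters from RefSeq (GRCm38.p6). Depth was 7214935 to 12398138 counts per library. Reads had no molecular identifiers.

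The 10 genes and the lists were chosen with earlier results of these data known. Named in the text were the 10 genes, related genes past the threshold, condensin II subunits and cohesin regulators tested, and for likeness the 5 genes with the highest r. The other cohesin subunits, Smc5, Smc6, Top2b, Ctcf, Smchd1, single marker genes and the overlapping genes were named after their values were seen. A further gene of the HSC marker list is not reported here.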

Additional observations from a re-analysis of the deposited data

Results flagged for a closer look

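In 5 of 108 sets of 4 libraries, the highest or lowest library stood apart from the other 3 by more than Dixon's critical value for the gap as a share of the range, and chance alone flags about 1 in 20 sets. For Smc2, control replicate 3, at 412 normalized counts, stood above the other controls, at 265 to 278 (ratio 0.908). For Stag2, control replicate 1, at 1213, was below the others, at 1550.5 to 1613 (0.844). Pds5b was flagged in both groups, with Mitol KO replicate 4 at 1214 below the others at 1473 to 1512 (0.871), and control replicate 3 at 1304 above the others at 1191 to 1205 (0.873). The level of Ncaph over Ncaph2 per kb was 0.0996 in control replicate 1 and 0.155 to 0.158 in the other controls (0.947).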

How the results depend on the processing

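With 4 libraries a group, single libraries moved the counts of calls, and depth was lowest for Esco2, with 25 reads in control replicate 1. Over all genes, 1386 passed in either direction, and 359 (without control replicate 2) to 2501 (without Mitol KO replicate 4) passed with a library left out. By the same measure the condensin count was 2 to 5, the cohesin count 0 to 2 and the count of related genes 4 (without control replicate 2) to 19 (without Mitol KO replicate 4). The median log2 fold change was 0.99 to 1.35 for condensin and 0.20 to 0.34 for cohesin, their difference 0.78 to 1.02, and the log2 difference of the condensin to cohesin ratio 0.74 to 0.93. With all 8 libraries, DESeq2 called 2315 genes, 1 cohesin gene (Rad21) and 14 related genes. The log2 difference of the ratio, 0.82, was 0.51 with the ATPase pairs alone. The cause of these differences was not tested. The calls of the 10 genes were otherwise the same under the other scalings, the filters and limma-voom, and no direction reversed. Same-number deviations from the group means correlated at -0.0695 to 0.0800, and 4 of 8 libraries correlated best with their own number. Deviations centred on 4 libraries a group cannot settle whether replicate numbers pair the samples, and the labels do not say. With the replicate block, 1652 genes passed, and among them the same 5 condensin genes and Esco2, 0 cohesin genes and 9 related genes.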
